A study of Mus musculus with 23 samples.

Results

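The genes described here are 9 transcription factor genes of the lateral ganglionic eminence, the part of the embryonic ventral forebrain that gives rise to the striatum and to olfactory bulb interneurons. They are the homeobox genes Gsx1, Gsx2, Dlx1, Dlx2, Dlx5, Dlx6 and Isl1, the helix-loop-helix gene Ebf1 and the zinc finger gene Sp8. All probes that the array annotation assigns to these symbols were taken, which gave 9 of 25697 probes on the array. Of the 9 genes, 8 had a probe. Dlx5 had 2 probes, each other gene 1, and Dlx6 is not analysed here.

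Total RNA of C57BL/6J mice was measured on Illumina arrays, 1 array per mouse and 23 in all. They differed in the number of altered copies of Meis1 (0, 1 or 2), which encodes a homeodomain protein and whose human counterpart is associated with restless legs syndrome. Embryonic forebrain was taken at E12.5 (embryonic day) from 5 wild types, 3 of them male, from 6 heterozygotes, 3 of them male, and from 5 homozygotes, 3 of them male. Brain of adult males of 23 weeks came from 3 wild types and 4 heterozygotes. Only the adults' labels spell out that the allele is one of Meis1, and the sources used here do not say what was changed in it. The first part of each embryo's mouse number was read as its litter, which the labels do not state. Litter 509 held 3 embryos, litter 542 held 5, litter 549 held 4 and litter 551 held 4, and litter 549 had no wild type. In wild types, heterozygotes and homozygotes these were 1, 1 and 1 (litter 509), 2, 2 and 1 (542), 0, 2 and 2 (549) and 2, 1 and 1 (551). Differences of homozygotes within litters 509, 542 and 551 thus rest on 1 homozygote each. Levels are log2 signals after background correction and quantile normalization, with embryos and adults normalized apart unless stated. A probe counts as detected on an array where its detection p, a comparison with the negative control probes of that array, is under 0.05. Changes were tested with limma over 14340 embryonic and 14266 adult probes, and a probe is said to be called where its Benjamini-Hochberg adjusted p over all of these is under 0.05.

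As background, Gsx2 and its relative Gsx1 act early, in dividing progenitors of the ventral forebrain, and lie upstream of the Dlx genes. Dlx1 and Dlx2 act in progenitors as they leave the cell cycle, and Dlx5 and Dlx6 follow in migrating and maturing GABA neurons. Isl1 and Ebf1 mark postmitotic neurons of the striatum, above all those of the direct pathway, and Sp8 is used by precursors of olfactory bulb interneurons. Meis proteins and their relatives bind DNA beside homeodomain partners, and Meis2 is a marker of the lateral ganglionic eminence and the striatum.

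The promoters are shown because Meis1 and most of the members bind DNA, and the 4 genes chosen are those with the clearest litter, genotype or stage values below. RefSeq (GRCm38.p6) gave 10 start sites for 7 of the 9 genes, and none for Dlx5 and Dlx6. The 250 bases before each start were searched on both strands for TGACAG, the core bound by Meis proteins, and TAATTA, a core bound by many homeodomains, Dlx and Gsx proteins among them. The 2 motifs do not overlap in any window where they were found. TGACAG was in 1 of the 10 windows and in 15.9% of all 32851 promoters of that length, and TAATTA was in 1 of 10 and in 4.84% of all. Both hits were before starts of Sp8. One, read as CTGTCA, began 155 bases before the start, and TAATTA began 188 bases before another start that lies inside the annotated gene. Only bases outside the annotated gene are printed, 5′ to 3′ on the gene's strand, at chr5:147188446-147188695 for Gsx1 (plus strand), chr12:118846079-118846287 for Sp8 (plus strand), chr2:71546755-71547004 for Dlx2 (minus strand) and chr13:116309689-116309938 for Isl1 (minus strand). Capitals mark the match to TGACAG.
Gsx1: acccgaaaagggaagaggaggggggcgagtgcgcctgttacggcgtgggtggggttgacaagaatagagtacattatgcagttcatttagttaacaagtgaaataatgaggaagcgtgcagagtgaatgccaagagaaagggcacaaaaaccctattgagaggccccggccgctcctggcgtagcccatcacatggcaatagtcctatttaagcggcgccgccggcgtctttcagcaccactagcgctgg
Sp8: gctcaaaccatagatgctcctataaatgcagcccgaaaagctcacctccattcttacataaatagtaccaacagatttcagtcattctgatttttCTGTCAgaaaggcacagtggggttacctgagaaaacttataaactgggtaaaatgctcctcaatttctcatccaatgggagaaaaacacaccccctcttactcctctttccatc
Dlx2: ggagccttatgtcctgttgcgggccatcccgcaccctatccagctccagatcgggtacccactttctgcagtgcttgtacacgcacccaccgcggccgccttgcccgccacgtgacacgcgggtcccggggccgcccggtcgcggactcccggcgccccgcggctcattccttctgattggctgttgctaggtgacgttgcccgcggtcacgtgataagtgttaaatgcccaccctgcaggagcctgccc
Isl1: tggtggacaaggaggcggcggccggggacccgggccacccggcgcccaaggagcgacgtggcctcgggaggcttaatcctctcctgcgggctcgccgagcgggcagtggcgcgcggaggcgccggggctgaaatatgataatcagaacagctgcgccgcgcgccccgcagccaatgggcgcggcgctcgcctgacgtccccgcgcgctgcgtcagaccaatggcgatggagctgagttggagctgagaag
The printed stretches of Gsx1, Dlx2 and Isl1 hold neither motif. Over the 10 windows G and C made up 40.0% to 71.2% of the bases, with a median of 58.8% against 52.4% in all promoters.

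Of the 9 member probes, 7 were detected on enough embryonic arrays to be tested. Levels of different probes are not compared, since probes differ in how well they bind. Gsx2 was detected on 0 of 23 arrays. Of the Dlx5 probes, ILMN_2755371 was detected on 0 of 23 arrays and ILMN_1241949 on 6 of 16 embryonic and 0 of 7 adult arrays. The probes of Gsx1, Dlx1, Dlx2, Ebf1, Isl1 and Sp8 were detected on every embryonic array. The tissue was labelled forebrain, and markers of the dorsal pallium (9 of 11 with a probe passed the filter), medial ganglionic eminence (6 of 10) and diencephalon and hypothalamus (10 of 14) were measured in it too. The values are thus of tissue that holds several regions, and fewer cells of a type cannot be told apart from less RNA per cell.

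The first comparison asked what 2 copies of the Meis1 allele change in the E12.5 forebrain. Meis1 itself lay at 9.75 to 10.17 in wild types, 9.43 to 9.81 in heterozygotes and 8.43 to 8.96 in homozygotes, and fell by 1.22 on the log2 scale in homozygotes (SE 0.12, limma adjusted p = 0.000287). The sources used here do not say whether its probe lies in the changed part. None of the 7 tested member probes was called, and 0.0488% of all 14340 probes were. At an unadjusted p under 0.05 stood 1 of the 7 (Gsx1) and 11.8% of all probes. The effects of the 7 ran from -0.34 to 0.39, with a median of -0.11 against 0.0030 over all probes.

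**Figure D1:**
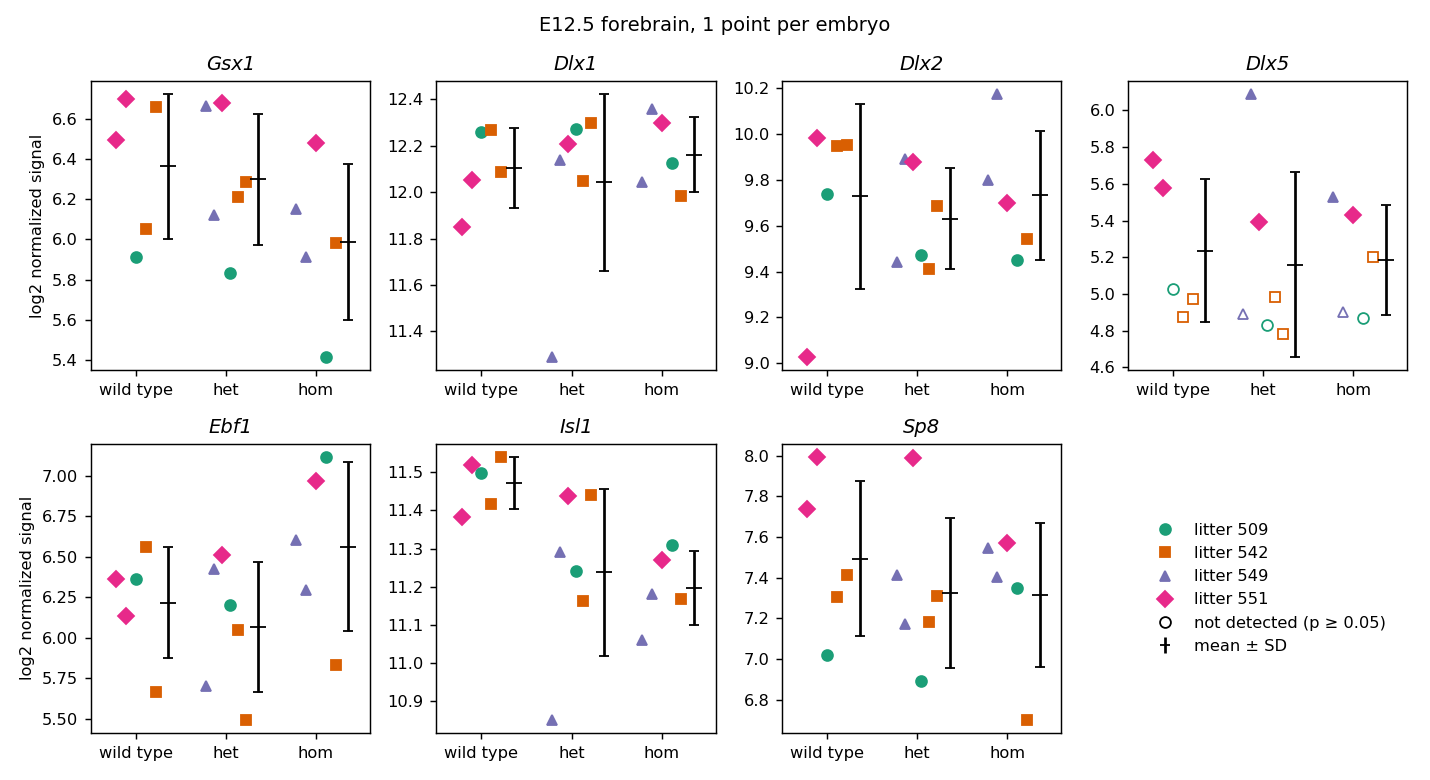
Log2 normalized signal (y axis, a scale of its own in each panel) of the 7 tested member probes in 16 E12.5 forebrains by Meis1 genotype (x axis), 1 point per embryo. Symbols and colours give the litter, open symbols arrays without detection, and bars the mean ± SD. All 5 homozygotes lie below all 5 wild types for Isl1, and the groups overlap for the other genes.

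Gsx1, the early progenitor factor, had the smallest p among the members. Its wild types lay at 5.91, 6.05, 6.50, 6.66 and 6.70 and its homozygotes at 5.42, 5.92, 5.98, 6.15 and 6.48, while the 6 heterozygotes ran from 5.83 to 6.68 with a median of 6.25. The groups overlap, and the lowest value of each genotype came from litter 509. With sex and litter as terms, the homozygote minus wild type difference was -0.34 ± 0.14 (SE; 95% interval -0.65 to -0.04; limma adjusted p = 0.409). Within litters 509, 542 and 551 it was -0.50, -0.37 and -0.12, so the 1 homozygote of each was lower than the wild type mean of its litter. Litter 509 had 1 wild type.

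Among the Dlx genes no difference exceeded the spread between embryos. Dlx1 was 12.10 ± 0.17 in wild types and 12.16 ± 0.16 in homozygotes (SD, n = 5 each), a difference of 0.13 in the fit (95% interval -0.25 to 0.51; limma adjusted p = 0.768). Dlx2 was 9.73 ± 0.40 and 9.73 ± 0.28, with a fitted difference of -0.11 (95% interval -0.51 to 0.30; limma adjusted p = 0.826). The wide spread of Dlx2 in wild types came from 1 male at 9.03, the other 4 lying between 9.74 and 9.98. Dlx5 was detected in 2 of 5 wild types, 2 of 6 heterozygotes and 2 of 5 homozygotes, and its fitted difference was -0.10 (95% interval -0.54 to 0.35; limma adjusted p = 0.859).

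Isl1, a LIM homeobox gene of early striatal neurons, separated the groups with no overlap. Its wild types lay at 11.38, 11.42, 11.50, 11.52 and 11.54 and its homozygotes at 11.06, 11.17, 11.18, 11.27 and 11.31. The 6 heterozygotes ran from 10.85 to 11.44 with a median of 11.27 and overlapped both groups. Lower in all homozygotes than in all wild types were also 0.551% of all probes. The fitted difference was -0.20 ± 0.11 (SE; 95% interval -0.44 to 0.05; limma adjusted p = 0.479), and it was -0.19, -0.31 and -0.18 within litters 509, 542 and 551. Isl1 is also used by motor and sensory neurons, whose part in the Isl1 values was not tested. Of the 11 genes with a probe on a list of their markers 2 passed the filter, both uncalled in this comparison. In the 3 wild type male embryos Chat and Slc18a3, which cholinergic neurons use, were not detected.

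Ebf1, a factor of differentiating striatal neurons, had the largest positive difference among the members. Its wild types lay at 5.67, 6.14, 6.36, 6.36 and 6.56 and its homozygotes at 5.83, 6.30, 6.61, 6.96 and 7.12, with heterozygotes from 5.50 to 6.51. The 2 highest values of all were homozygotes, of litters 509 and 551, but the groups overlap. The fitted difference was 0.39 ± 0.21 (SE; 95% interval -0.06 to 0.85; limma adjusted p = 0.467). Within litters 509, 542 and 551 it was 0.75, -0.28 and 0.71, so its sign was not the same in each. Sp8 was 7.49 ± 0.38 in wild types and 7.31 ± 0.36 in homozygotes (SD, n = 5 each), a fitted difference of -0.16 (95% interval -0.49 to 0.18; limma adjusted p = 0.678). Within litters 509, 542 and 551 the Sp8 difference was 0.33, -0.66 and -0.29, so its sign differed between litters.

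The other genes of the lineage were read from lists of region and cell type markers, each gene by its brightest probe. Of 17 tested genes of the striatal lineage 0 were called, 13 were above 0 and their median was 0.21, against -0.0037 over all genes. Of all probes, 50.6% were above 0. Of the 17 striatal genes, Drd2 and Ppp1r1b (probe ILMN_1253473) were detected in 0 of 5 wild types. Both passed the filter only through embryos with the allele and are among the 13 above 0, a sign that the filter favours. Smallest in p was Tac1, which encodes substance P, at -0.52 ± 0.12 (SE; limma adjusted p = 0.319). Of 9 genes of the GABA neuron program 0 were called and 5 were above 0, led by Calb2, the calcium binding protein calretinin, at -0.36 ± 0.11 (limma adjusted p = 0.381). Of 10 regulators of ventral progenitors 0 were called and 4 were above 0, led by Gli3, through which hedgehog signals act, at 0.57 ± 0.17 (limma adjusted p = 0.381). Of 6 genes of the medial ganglionic eminence 0 were called and 2 were above 0, led by the neuropeptide gene Sst at -0.69 ± 0.20 (limma adjusted p = 0.381). The lists share some genes.

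Markers of other regions and cell types were also uncalled. Of the head mesenchyme and meninges list, 14 of 16 genes were above 0, with a median of 0.24, and its summed signal was 8014 to 12474 in wild types and 9835 to 11942 in homozygotes. Of the diencephalon and hypothalamus list, 9 of 10 were above 0, with a median of 0.20, and its summed signal was 4352 to 8321 and 5842 to 9476. These values lie beside the members' differences, and their part in them was not tested. The genes of smallest p were Irx5 (diencephalon, 0.50), Foxc1 (mesenchyme, 0.57), Gap43 (epithelium list, -0.46), Trh (olfactory bulb list, -0.44) and Notch3 (pericytes, 0.39), each at a limma adjusted p of 0.381. Tbr1 of the dorsal pallium (0.20), Lhx3 of motor neurons (-0.15), Vpreb1 of B cells (-0.20) and Neurod1 of the cerebellum list (-0.27) had adjusted p-values between 0.511 and 0.680.

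The second comparison set heterozygotes, with 1 copy of the allele, against wild types at E12.5 for the same 7 member probes. None of the 7 was called, and 0% of all probes were. All 7 estimates were below 0, between -0.22 (Dlx2) and -0.01 (Dlx1), each at a limma adjusted p of 0.999, and 49.7% of all probes had an estimate above 0. The Gsx1 difference was -0.03 (95% interval -0.32 to 0.26), the Isl1 difference -0.17 (-0.40 to 0.06) and the Ebf1 difference -0.04 (-0.47 to 0.40). Sp8 stood at -0.11 and Dlx5 at -0.07. Among the lineage lists, 10 of 17 striatal and 2 of 9 GABA genes were above 0 and 0 were called, with the smallest p-values at Drd2, a dopamine receptor gene, and Slc32a1, the vesicular GABA transporter gene (-0.32). Drd2 was detected in 0 of 5 wild types and 4 of 6 heterozygotes, so it passed the filter only through embryos with the allele and no difference is given. Ppp1r1b (probe ILMN_1253473) was likewise detected in 0 of 5 wild types and 4 of 6 heterozygotes. Both are among the 10 striatal genes above 0, a sign that the filter favours.

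Homozygotes were also set against heterozygotes, which share their homozygote samples with the first comparison and their heterozygote samples with the second. None of the 7 members was called, and 0.0697% of all probes were. Gsx1 differed by -0.31 ± 0.13 and Ebf1 by 0.43 ± 0.19 (SE; both limma adjusted p = 0.599). Gsx1 was lower in homozygotes in all 4 litters, by -0.42, -0.27, -0.36 and -0.20 in litters 509, 542, 549 and 551. The other 5 estimates ran from -0.05 (Sp8) to 0.14 (Dlx1), with Dlx2 at 0.11, Dlx5 at -0.03 and Isl1 at -0.03. Among the lists, 14 of 17 striatal and 7 of 9 GABA genes were above 0 and 0 were called, with the smallest p-values again at Tac1 (-0.27) and Calb2 (-0.23). Whether the homozygote effect differed between males and females was tested as well, and 0 of 7 members and 0% of all probes were called, the members' differences running from -0.07 to 0.57.

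**Figure D2:**
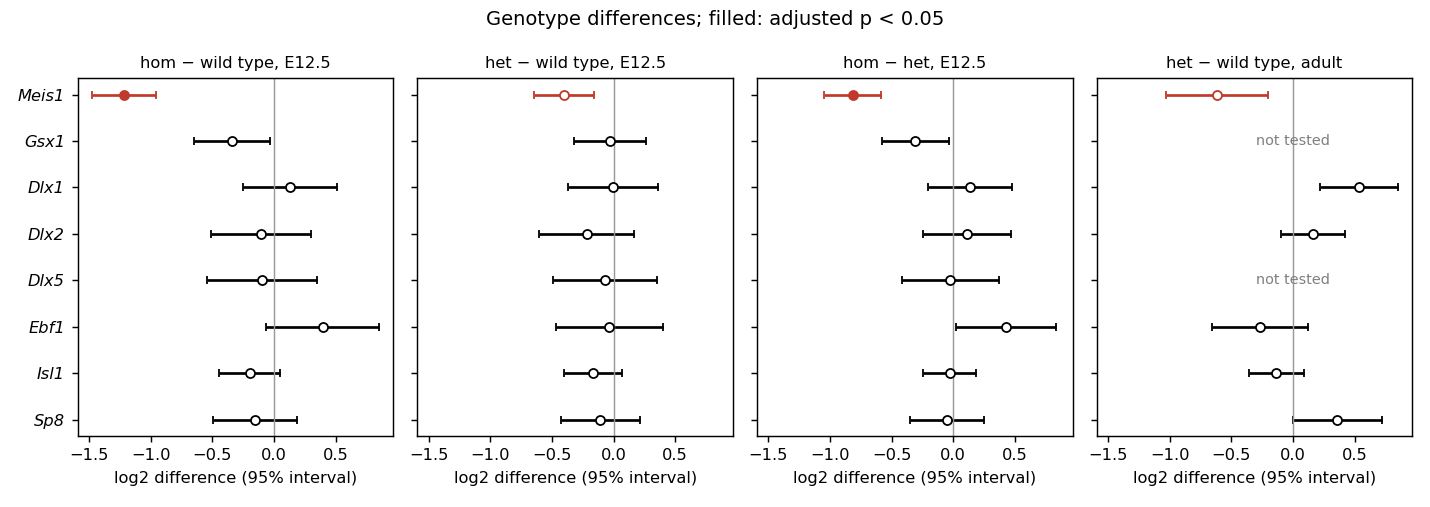
Fitted log2 differences (x axis) of the member genes and Meis1 (y axis) in the 4 genotype comparisons, with 95% confidence intervals. Filled points have an adjusted p under 0.05, which holds for Meis1 in both comparisons of homozygotes and for no member. Gsx1 and Dlx5 were not detected in adults and not tested there.

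Gsx1 and Sp8 differed between litters. Of the 7 members these 2 were called in a test over the 4 litters, and 34% of all probes were called, so the share of members is near the background. The first principal component of the 16 embryos took up 39.6% of their variance, of which the litters account for 91.3%. The labels do not say what differed between the litters.

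Gsx1 differed between litters by more than its spread within them (limma F = 9.24, adjusted p = 0.00725). Its mean was 5.72 ± 0.27 in litter 509 (SD, n = 3), 6.24 ± 0.26 in litter 542 (n = 5), 6.21 ± 0.32 in litter 549 (n = 4) and 6.59 ± 0.12 in litter 551 (n = 4). Litters 542 and 549 do not differ beyond their spread, and litter 509 lies below litter 551 without overlap, at 5.42 to 5.91 against 6.48 to 6.70. Sp8 was, like Gsx1, lowest on average in litter 509 and highest in litter 551 (F = 7.51, limma adjusted p = 0.0140). Its mean was 7.09 ± 0.24 in litter 509, 7.18 ± 0.28 in litter 542, 7.38 ± 0.15 in litter 549 and 7.82 ± 0.20 in litter 551. All 4 embryos of litter 551, at 7.57 to 7.99, lie above all 12 others, whose highest value is 7.55.

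Dlx5 was detected in 4 of 4 embryos of litter 551, 2 of 4 of litter 549, 0 of 5 of litter 542 and 0 of 3 of litter 509. Its test over litters stood at F = 3.84 (limma adjusted p = 0.0796). Dlx5 passed the filter only through litters 551 and 549, so its tests over litters are no support for a litter difference. Ebf1 (adjusted p = 0.133), Isl1 (0.488), Dlx2 (0.505) and Dlx1 (0.666) were not called by the same limma test, and the litter means of Dlx1 lay between 11.96 and 12.22. Without the heterozygous female of litter 551, or without its wild type female, Sp8 lost its call, at limma adjusted p-values of 0.0639 and 0.0506. Ebf1 gained a call without wild type male 3 of litter 542 (limma F = 6.67, adjusted p = 0.0221). Dlx5 gained one without litter 549 (F = 15.7, limma adjusted p = 0.00480) and without any of 3 of its embryos, heterozygous male 1 (0.0257), heterozygous male 2 (0.0219) or homozygous female 1 (0.0358). Without litter 549 the arrays that detect Dlx5 are all of litter 551, and the filter was not applied anew.

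**Figure D3:**
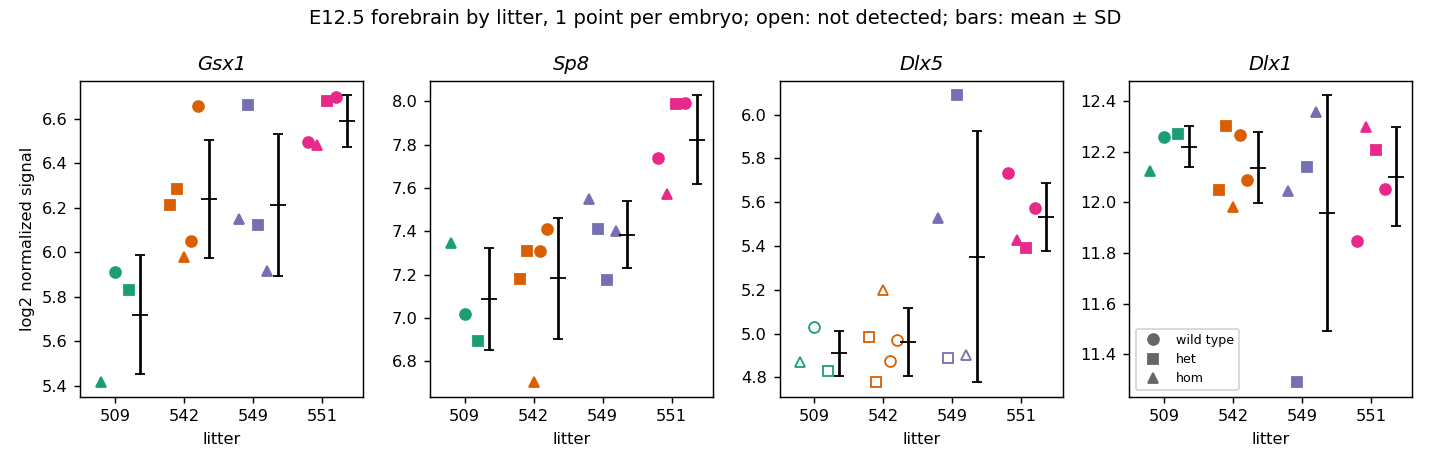
Log2 normalized signal (y axis, a scale of its own in each panel) of Gsx1, Sp8, Dlx5 and Dlx1 by litter (x axis), 1 point per E12.5 embryo, with symbols for genotype, open symbols for arrays without detection and bars for the mean ± SD. Gsx1 and Sp8 are lowest on average in litter 509 and highest in litter 551, and Dlx5 was detected in all 4 embryos of litter 551.

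Of the lists, called over litters were 3 of 17 striatal genes, 3 of 9 GABA genes, 6 of 10 ventral progenitor regulators and 3 of 6 medial ganglionic eminence genes, against 32.2% of all genes. Those of the striatal list were Foxp2, a forkhead factor, Rxrg, a retinoid receptor gene, and Six3, a homeobox gene. Those of the GABA list were Gad1, which makes GABA, Etv1 and Npas3. Gli3 (F = 109, limma adjusted p = 1.8e-06), Olig2, Nr2f2, Nr2f1 and Sall3 led the progenitor regulators, and Cxcr4, Nkx2-1 and Gbx2 were those of the medial eminence. In the remaining lists 6 of 9 dorsal pallium, 4 of 10 diencephalic, 7 of 16 mesenchymal, 3 of 8 pericyte, 3 of 9 epithelial, 2 of 8 olfactory bulb, 2 of 4 cerebellar, 1 of 2 motor and sensory and 0 of 3 B lymphoid genes were called. The smallest p-values among them belonged to Neurod1, Slc17a7, Tbr1, Eomes and Lhx2 (pallium), Lhx1, Tcf7l2, Irx3 and Irx2 (diencephalon), Dcn, Col3a1, Foxc1, Prrx1 and Lum (mesenchyme), and Pdgfrb, Rgs5 and Notch3 (pericytes). They also belonged to Gap43, Ngfr and Cdh1 (epithelium), Slc17a6 and again Eomes (olfactory bulb), Zic1 and again Neurod1 (cerebellum), and Pou4f1 (sensory neurons), while Cd79b led the uncalled B lymphoid genes. Neurod1 was not detected in litters 509 and 542, nor Rgs5 in litter 551. The summed signal of the ventral progenitor regulators was 13777 to 14683 in litter 509 and 15938 to 17936 in litter 551, and that of the diencephalon list 8321 to 9476 and 3359 to 6831. The part of these in the litter values of Gsx1 and Sp8 was not tested.

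How the members vary together was read from the 16 embryos after each litter's mean was taken off. Of 21 pairs of 7 genes, 0 were called after adjustment by Pearson's r or by Spearman's rho, and 14 had r above 0. Dlx1 and Dlx2, neighbours on chromosome 2, had r = 0.680 (within-litter permutation p = 0.00833, adjusted p = 0.0951) and rho = 0.644 (permutation p = 0.0230, adjusted p = 0.161). Dlx2 and Isl1 had r = 0.661 (permutation p = 0.00906, adjusted p = 0.0951) and rho = 0.724 (permutation p = 0.00665, adjusted p = 0.0813). Gsx1 and Ebf1 had r = -0.688 (permutation p = 0.0141, adjusted p = 0.0988) and rho = -0.741 (permutation p = 0.00774, adjusted p = 0.0813). Without the 2 embryos farthest from the median of the first gene these r were 0.587, 0.741 and -0.612. Dlx1 and Isl1 had r = 0.541 (permutation p = 0.0826, adjusted p = 0.434) with all embryos and 0.299 without those 2, 1 of them the heterozygous male of litter 549 that is lowest for both genes. With genotype and sex taken off as well as litter, the same pair had r = 0.788 (permutation p = 0.00810, adjusted p = 0.0567), and 0.600 without the 2 farthest embryos. The permutations did not account for the genotype and sex terms, so that p can be too small. The points share the array and its normalization.

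**Figure D4:**
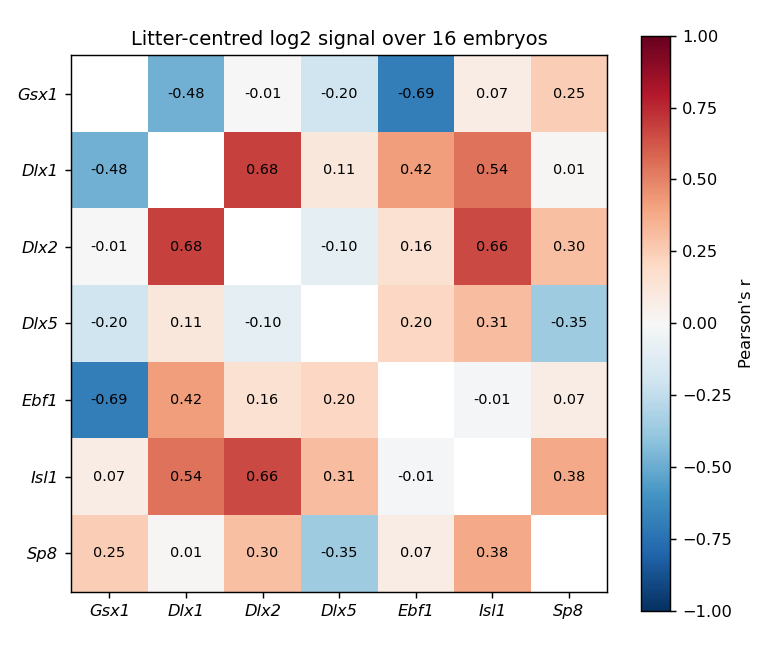
Pearson's r (colour and number) between the 7 tested member genes, on both axes, over 16 E12.5 embryos after centring each litter. The highest is Dlx1 with Dlx2 at 0.68 and the lowest Gsx1 with Ebf1 at -0.69, and 0 of the 21 pairs passed the adjusted threshold.

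The ranking took 9724 other genes with a probe that passed the embryonic detection filter. Those most like the mean of Dlx1, Dlx2 and Dlx5 over the litter-centred embryos were Mmd2 (r = 0.906), Pacsin1 (0.894), Glra2 (0.887), Gpr21 (0.883) and Meis2 (0.875). Each of these 5 was closer to Dlx1 (0.786 to 0.854) and Dlx2 (0.665 to 0.817) than to Dlx5 (0.179 to 0.373). The r are the highest of many and carry no test.

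In the adult brain 5 member probes were tested, those of Dlx1, Dlx2, Ebf1, Isl1 and Sp8, each detected on all 7 arrays. The comparison of 4 heterozygotes with 3 wild types called 0 of 5 members and 0% of all 14266 probes, and Meis1 itself was at -0.62 ± 0.19 (SE; limma adjusted p = 0.387). At an unadjusted p under 0.05 stood 1 of the 5 (Dlx1) and 10.6% of all probes. Dlx1, which adult GABA interneurons retain, lay at 7.51, 7.81 and 8.11 in wild types and at 8.19, 8.28, 8.34 and 8.58 in heterozygotes. All 4 heterozygotes lay above all 3 wild types, as they did for 5.43% of all probes. The difference was 0.53 ± 0.14, or 44.7% more signal, and did not pass the adjustment (95% interval 0.22 to 0.85; limma adjusted p = 0.366).

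Sp8 lay at 4.84, 5.13 and 5.46 in adult wild types and at 5.26, 5.35, 5.57 and 5.82 in heterozygotes, which overlap (0.36, 95% interval -0.00 to 0.72; limma adjusted p = 0.466). Dlx2 differed by 0.16 (limma adjusted p = 0.613), Isl1 by -0.13 (0.619) and Ebf1 by -0.27 (0.571). The Ebf1 wild types were 5.14, 5.18 and 5.97, and without the last the Ebf1 difference was 0.0017. Of the lists, 13 of 19 striatal and 4 of 8 GABA genes were above 0 and 0 were called. Smallest in p were Rgs9 (0.23), a signalling regulator of striatal neurons, and Th (0.74), the enzyme of dopamine synthesis that olfactory bulb interneurons also carry.

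Markers of the cerebellum had lower values in the adult heterozygotes. Of the 8 tested, 0 were above 0 and 0 were called, with a median of -0.49, and their summed signal was 5244 to 5469 in wild types and 5186, 5169, 4521 and 1982 in heterozygotes 1 to 4. Without heterozygote 4, which stands apart, Dlx1 differed by 0.56 (limma adjusted p = 0.417) and Sp8 by 0.25 (0.549). Striatal and olfactory bulb lists had summed signals of 6324 to 6458 and 8242 to 9292 in wild types and 6418 to 7101 and 8255 to 9074 in heterozygotes. The part of tissue makeup in the Dlx1 difference among the other heterozygotes was not tested.

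The last comparison set adult brain against E12.5 forebrain, in 3 wild type males each, with all 23 arrays normalized together and 16352 probes tested. Of the 7 members, 5 were called and all 5 were lower in adults, where 65.9% of all probes were called and 35.6% were called lower. The median of all probes shifted by -0.11, and that of the 7 members by -1.56. Gsx1, which is among the 5, and Dlx5 were detected on no adult array. Both passed the filter only through embryos, which favours a lower value in adults. The tissue label and the set of arrays differ between the stages too and cannot be told apart from age.

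Isl1 lay at 11.11, 11.14 and 11.23 in embryos and at 7.78, 7.93 and 8.02 in adults, a level 9.53-fold higher in embryos (limma adjusted p = 2.5e-14). Dlx1 lay at 11.58, 11.99 and 11.99 and at 8.38, 8.72 and 9.04, which is 8.82-fold (adjusted p from limma 4.8e-11). Dlx2 lay at 8.76, 9.46 and 9.67 and at 5.98, 6.00 and 6.24, which is 9.36-fold (limma adjusted p = 3.7e-11). The sizes depend on the normalization and the samples. Over the alternatives tried apart from single arrays left out, the log2 difference ran from -4.35 to -2.73 for Isl1, from -4.31 to -2.35 for Dlx1, from -4.04 to -1.99 for Dlx2 and from -2.21 to -0.63 for Sp8, each still called. For Isl1, Dlx1 and Dlx2 no embryo of either sex or any genotype overlaps with any adult. The same holds for Gsx1, which no adult array detected, and narrowly for Sp8 (lowest embryo 6.49, highest adult 6.45). Among the 3 wild type males of each stage, 37% of all probes were lower in all adults than in all embryos. Sp8 fell by 1.56 (limma adjusted p = 3.4e-05), from 7.12 ± 0.35 to 5.56 ± 0.41 (SD, n = 3 each).

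Gsx1 was detected in all 3 embryos, at 5.97 ± 0.29 (SD), and in 0 of 7 adults, so its level was at least 1.84-fold higher in embryos. This bound carries no test. The call of Gsx1 (limma adjusted p = 1.6e-05) belongs to the fitted difference of -1.36, which uses adult values below detection. The bound holds for this normalization, and without background correction the Gsx1 difference was -0.42 on the log2 scale. It sets the adults at the lowest signal among detected probes of each array, where their measured mean was 4.62 ± 0.19. Dlx5 was detected in 1 of the 3 embryos and in 0 adults, and was not called (limma adjusted p = 0.0526). By the same bound its level was at least 1.00-fold that of adults, which sets no difference. Ebf1 differed by -0.30 (limma adjusted p = 0.300). One adult wild type at 6.62 stood above the other two at 5.56 and 5.62, and without it Ebf1 was called, at -0.65 (limma adjusted p = 0.0184).

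**Figure D5:**
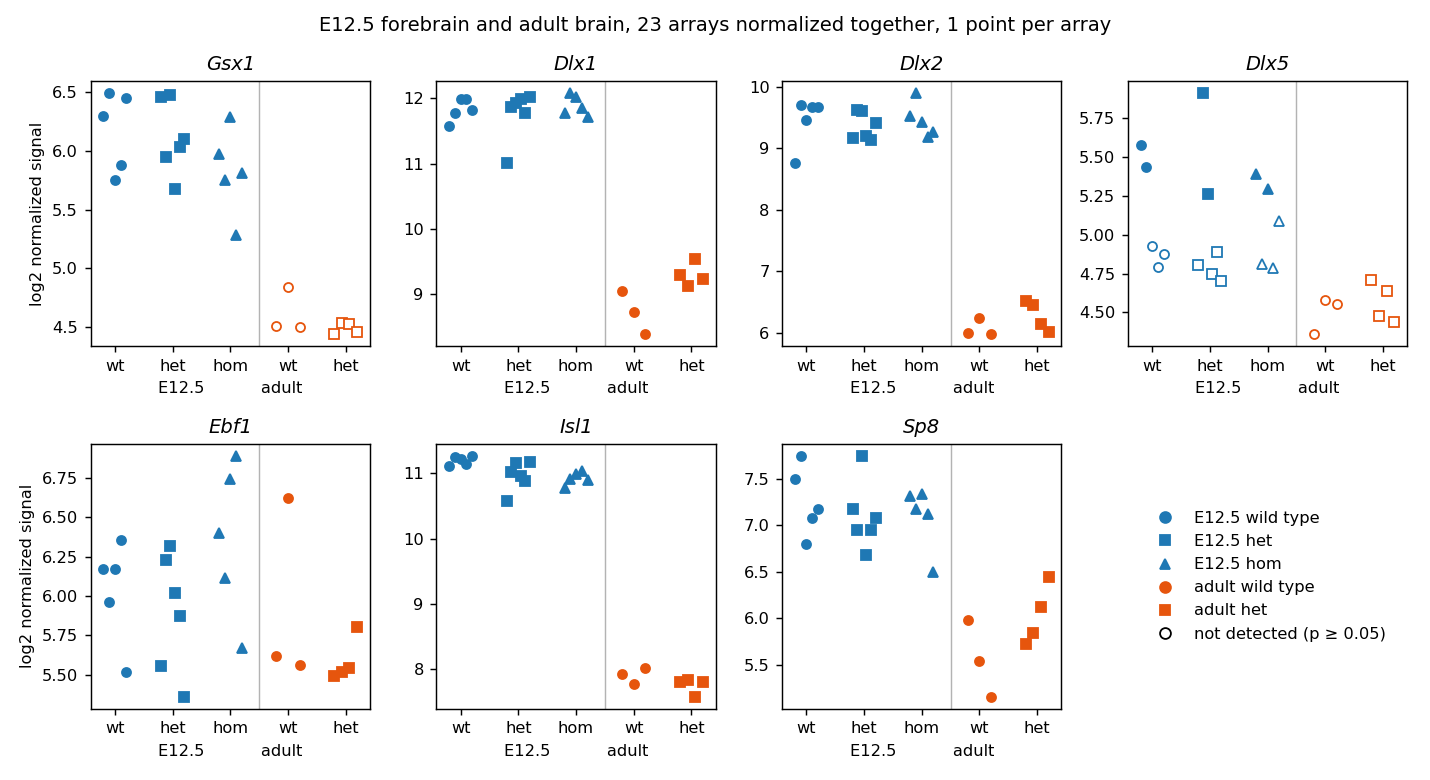
Log2 signal (y axis, a scale of its own in each panel) of the 7 tested member probes on 23 arrays normalized together, by stage and Meis1 genotype (x axis; wt, wild type), 1 point per array, with open symbols for arrays without detection. For Gsx1, Dlx1, Dlx2, Isl1 and Sp8 all 16 embryos lie above all 7 adults, and for Dlx5 and Ebf1 the stages overlap.

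The wider lineage split between the stages. Of 20 striatal genes, 8 were higher in adults and 8 lower, against 66.9% called over all genes. Among the 20, Drd1, Drd2 and Gpr6 were detected in 0 of the 3 embryos and Six3 in 0 of the 3 adults. Lack of detection at a stage favours the sign that these genes have. Higher were genes of mature striatal neurons, among them Ppp1r1b (DARPP-32) by 5.98 ± 0.12, Rgs9 by 5.69 and Tac1 by 2.72 on the log2 scale (SE; largest limma adjusted p 3.3e-13). Ppp1r1b, read here by another probe than in the embryonic set (ILMN_2954824), and Rgs9 were each detected in 1 of the 3 embryos. The dopamine receptor genes Drd1 and Drd2 were detected in 0 of these embryos, so their levels were at least 8.90-fold and at least 5.53-fold higher in adults by the same bound as for Gsx1. Of 10 genes of the GABA program 5 were higher and 3 lower, with Calb2 at 2.86, Gad1 at 3.57 and Slc32a1 at 2.07, and with the transcription factor genes Pbx3 at -2.29 and Sp9 at -2.59. Npas1, among the 10, was detected in 0 of the 3 embryos, which favours a higher value in adults. Whether the heterozygote effect differs between adults and E12.5 males was tested in the same fit, and 0 of 7 members and 0% of all probes were called, the members' differences running from -0.32 to 0.79 (Dlx1, limma adjusted p = 0.808).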

How the data were processed

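Illumina expression arrays measured total RNA of 16 E12.5 forebrains and 7 adult brains. Per the submitters' processing notes, arrays were read with GenomeStudio 2011.1. Per the file headers, the raw table gives each probe an intensity and a detection p-value on every array. The authors also deposited a processed intensity table, with column medians of 31.1 to 31.3 in embryos and 16.2 to 16.3 in adults; the sources used here do not state how it was scaled, and its 23 columns each matched their own array. Median raw signal per array was 164 to 210 in embryos and 119 to 143 in adults, and the number of arrays limits the precision.

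Signals were background-corrected and quantile normalized with neqc of limma 3.58.1 (R 4.3.3), with background estimated from detection p-values and 16 added as offset. A probe was kept when detected (p under 0.05) on 5 or more arrays in the embryonic set, 3 or more in the adult set and 3 or more when all were joined. Of all probes 23978 had 1 gene symbol, 0 several and 1719 none. limma (lmFit, eBayes, two-sided) was fitted with genotype, sex and litter in embryos, genotype in adults, and stage, genotype and sex groups in the joint set. On data simulated at these sizes, with independent noise and no litter differences, it recovered 90% of log2 changes of 1 for homozygotes and 95% for adult heterozygotes. Between the stages it recovered 80%, and for the heterozygote effect by stage 55%. A change of 1 is larger than any genotype difference of the members, for which no rate was obtained. Pairs were tested with 100000 permutations within litters. Each array is a separate mouse per its label, and p-values measure the spread between these samples.

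The members and the 13 marker lists were chosen with earlier results of these data known. Named were all member probes, Meis1, called list genes (at most 5 a list) or the gene of smallest p, and the 5 genes most like the Dlx mean. The labels do not say that a replicate number marks a shared litter or day, and no pairing was used. Alternatives were other background correction, scaling and filters, the authors' processed values, other models, single sexes and litters, and each array left out.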

Additional observations from a re-analysis of the deposited data

Results flagged for a closer look

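Single arrays stood far from the rest of their group in 5 of 26 groups tested with Dixon's criterion at its 95% level, where chance flags about 1 in 20. Dlx1 was 11.29 in E12.5 heterozygous male 1 (litter 549) against 12.05 in the next lowest of 6 heterozygotes. Dlx2 was 9.03 in E12.5 wild type male 1 (litter 551), and the next lowest of 5 wild types was 9.74. Sp8 was 6.70 in E12.5 homozygous female 2 (litter 542), and the next lowest of 5 homozygotes was 7.35. Among the 4 adult heterozygotes, Isl1 was 6.79 in male 3 against 6.99 in the next lowest, and Ebf1 was 5.32 in male 4 against 5.12 in the next highest. Adult heterozygous male 4 is also the array of lowest cerebellar marker signal, 1982 against 4521 in the next lowest.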

How the results depend on the processing

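No member probe was called in any genotype comparison under any alternative tried. Leaving out each array in turn kept the homozygote minus wild type difference below 0 for Gsx1 (-0.45 to -0.22) and Isl1 (-0.24 to -0.16) and above 0 for Ebf1 (0.30 to 0.56) and Dlx1 (0.04 to 0.26), and the adult Dlx1 difference at 0.38 to 0.68. The same ranges crossed 0 for Dlx2 (-0.27 to 0.0077), Dlx5 (-0.25 to 0.0059) and Sp8 (-0.32 to 0.026) in homozygotes against wild types. In heterozygotes against wild types they crossed 0 for Gsx1 (-0.10 to 0.10), Dlx1 (-0.11 to 0.083), Dlx5 (-0.18 to 0.020) and Ebf1 (-0.15 to 0.17). In homozygotes against heterozygotes they did so for Dlx1 (-0.040 to 0.26), Dlx5 (-0.18 to 0.19), Isl1 (-0.11 to 0.026) and Sp8 (-0.17 to 0.12), and in adults for Ebf1 (-0.41 to 0.0017). The cause was not tested.

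Other settings turned further differences that had not been called. For homozygote against wild type, Dlx2 became 0.0041 without the litter term and likewise 0.0041 with the replicate block, and in males alone Dlx2 became 0.12 and Sp8 0.12. For heterozygote against wild type, Ebf1 became 0.0012 without background correction, Dlx1 became 0.00052 on the authors' processed values and 0.13 without litter 549, and Gsx1 became 0.12 in males alone. For homozygote against heterozygote, Dlx5 became 0.031 on the authors' processed values, 0.17 without litter 549 and 0.013 without the litter term, Dlx1 became -0.12 without litter 549 and Sp8 became 0.20 in males alone. Replicate numbers were checked for pairing by the correlation of same-numbered arrays' deviations from their group means. Of 15 embryonic pairs, 11 were above 0.1 and 4 below 0 (-0.46 to 0.74); the 6 female pairs ran from 0.24 to 0.74, and 4 of the 15 shared a litter. Of 3 adult pairs 1 was above 0.1 (-0.14 to 0.11). Of 15 embryos with a same-numbered partner, 8 correlated best with their own number. As not every pair was above 0.1 the numbers were not taken to pair the samples. The replicate block left 0 members called, and over all probes 5 rather than 7 for homozygote against wild type and 9 rather than 10 for homozygote against heterozygote.

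The 2 litter calls became 0 in males alone (limma adjusted p 0.122 for Gsx1 and 0.289 for Sp8; 9 arrays), 1 without E12.5 heterozygous female 1 and 1 without wild type female 1, and ranged from 1 to 3 over the arrays left out. With residuals of litter, sex and genotype, 2 of 21 pairs were called by Pearson's r rather than 0, Dlx1 with Dlx2 (r = 0.729) and Dlx2 with Isl1 (r = 0.728). By Spearman's rho the permutation adjusted p was 0.00651 for Dlx1 with Dlx2 and 0.0742 for Dlx2 with Isl1. The permutations within litters did not account for the sex and genotype terms, so these p-values can be too small. Between the stages 4 to 7 members were called, and over all probes 10768 in the main fit and from 7312 to 13129 under the alternatives. The count of 4 is from the filter of detection on every array, under which Gsx1 and Dlx5 were not tested. Ebf1 (-1.002) and Dlx5, which no adult array detected, were both added where the stages were normalized apart. That setting also called the most of all probes, 13129. Dlx5 gained a call in 3 of 5 alternatives and in 5 of 23 fits with an array left out. Over all probes, homozygote against wild type called 7 and from 1 to 9 under the alternatives, homozygote against heterozygote 10 and from 2 to 14, and litter 4878 and from 1307 to 5770. Signal over background limits Gsx2 and Dlx5, whose probes are at or near the detection limit.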

Other observations

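Dlx1as, a transcript read from the strand opposite Dlx1, has a probe of its own, ILMN_2924781, and was looked at after its values were seen. It was lower in litter 551, at 6.86, 7.27, 7.40 and 7.47, than in all 12 embryos of the other litters, at 8.03 to 9.20 (limma F = 36.5, adjusted p = 6.2e-05). Its litter means were 7.25 ± 0.27 in litter 551 (SD, n = 4), 8.61 ± 0.39 in litter 549 (n = 4), 8.74 ± 0.26 in litter 542 (n = 5) and 8.99 ± 0.21 in litter 509 (n = 3). The Dlx1 probe did not differ by litter in the same fit (limma adjusted p = 0.666), and the litter difference between the probes was not tested. By genotype Dlx1as was not called (homozygote minus wild type 0.10, limma adjusted p = 0.815).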
